A study of Mus musculus with 20 samples.

Results

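The regions described here are 4829 windows of 1000 bp that flank CpG-dense, unmethylated windows of the mouse genome, among 84524 windows tested. The autosomes 1 to 19 of the mm9 build were cut into fixed windows, and a cytosine was used where each of the 20 libraries covered it by at least 10 reads. A window with at least 20 such cytosines and a mean methylation level below 10% over the 20 libraries was taken as an anchor, which gave 12660 anchors. A shore is a window with 3 to 9 such cytosines that starts 1000 or 2000 bp from the start of an anchor, whatever its own level. The members were therefore chosen by the measured level of the anchors and the number of covered cytosines, while the level of the shores themselves and the differences between groups were not used. Of the shores, 3584 lay next to an anchor, at 1000 bp, and 1245 lay at 2000 bp. The 56364 windows of 3 to 9 cytosines that are not shores are called the other sparse windows.

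CpG islands are stretches of CpG-dense DNA that stay unmethylated in most cells and often hold promoters, and their shores are the less dense flanks on which methylation passes to the high level of the rest of the genome. DNMT1 copies methylation after replication, DNMT3A and DNMT3B add it, and the TET enzymes start its removal. Shores are known as places where methylation differs between tissues and in tumours more often than within islands. Promyelocytes are granulocyte precursors, and PML-RARα is the fusion of PML with the retinoic acid receptor α that drives acute promyelocytic leukaemia.

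Methylation was read by enhanced reduced representation bisulfite sequencing (ERRBS), which sequences CpG-rich restriction fragments after bisulfite treatment. Bisulfite turns unmethylated cytosines into bases sequenced as T and leaves methylated ones as C. The 20 libraries came from mice of the FVB/n background and formed 4 groups of 5, namely late (CD34−) promyelocytes of PML-RARα transgenic mice, CD34− promyelocytes of wild-type (WT) mice, early (CD34+) promyelocytes of PML-RARα mice and CD34+ promyelocytes of WT mice. The study compared the genotypes at both stages. The labels name neither the promoter of the transgene nor the mouse behind each library, so p-values measure the spread between libraries, which may be partly technical. Libraries are named here by the running number that opens their title. The titles also carry a # number of 1 or 2, which recurs in all 4 groups on 2 or 3 libraries each and whose meaning the labels do not give. If it marks a shared source, the libraries of a group are not all independent, and the p-values are then too small. Consecutive running numbers, such as 1 and 2, hold the CD34+ and CD34− fraction of the same genotype and # number. The labels do not say whether such a pair comes from 1 mouse, and the main test did not use it. Sequence, gene names and annotated CpG islands of mm9 were not used here, so the shores are given by position, and the sorted cell type was not checked against marker genes.

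The libraries held between 83631324 and 362881291 reads of cytosines in total, and the median coverage of a shore, summed over its cytosines, ranged from 263 to 813 reads between libraries. The libraries were spread over 4 flowcells, lettered A to D, of which A, B and D held both fractions of WT mice and B alone held both fractions of PML-RARα mice. The 25464 cytosines of the shores are 2.21% of the 1150978 cytosines shared by the libraries. Shores were found beside 4695 anchors (37.1% of them). The median shore held 5 cytosines and the median anchor held 40.

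Averaged over cytosines, methylation of the shores changed steeply over the first 800 bp next to the anchors. The mean level over the 20 libraries averaged 28.0% over the shores, with a median of 5.61%. It averaged 17.7% at 1000 bp and 57.4% at 2000 bp, against 76.2% in the other sparse windows and 0.923% in the anchors. The level of the anchors was set by the rule, while shores at 1000 bp were lower than shores at 2000 bp, and these lower than the other sparse windows, in 20 of 20 libraries. Beyond the shores, sparse windows averaged 66.5% at 3 kb and 75.9% at 10 kb from an anchor, so the flank of lower methylation reached past the windows studied here.

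The averages hide a split into unmethylated and methylated shores. Of the 4829 shores, 2718 (56.3%) had a level below 10%, 580 (12.0%) had one above 90%, and 1531 (31.7%) lay between. At 1000 bp, 67.6% were below 10% with a median of 1.75%. At 2000 bp, 23.8% were below 10% and 33.3% above 90%, with a median of 75.6%. The other sparse windows were below 10% in 8.03% of cases and above 90% in 52.7%. In 11 shores no methylated read was found in any library, at a total coverage of 3171 reads or more, where a count of 0 allows a level of up to 0.0946%. This limit covers counting error only. Coverage is summed over cytosines, so a read is counted at each cytosine it covers, and reads without molecular identifiers are not independent molecules.

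**Figure D1:**
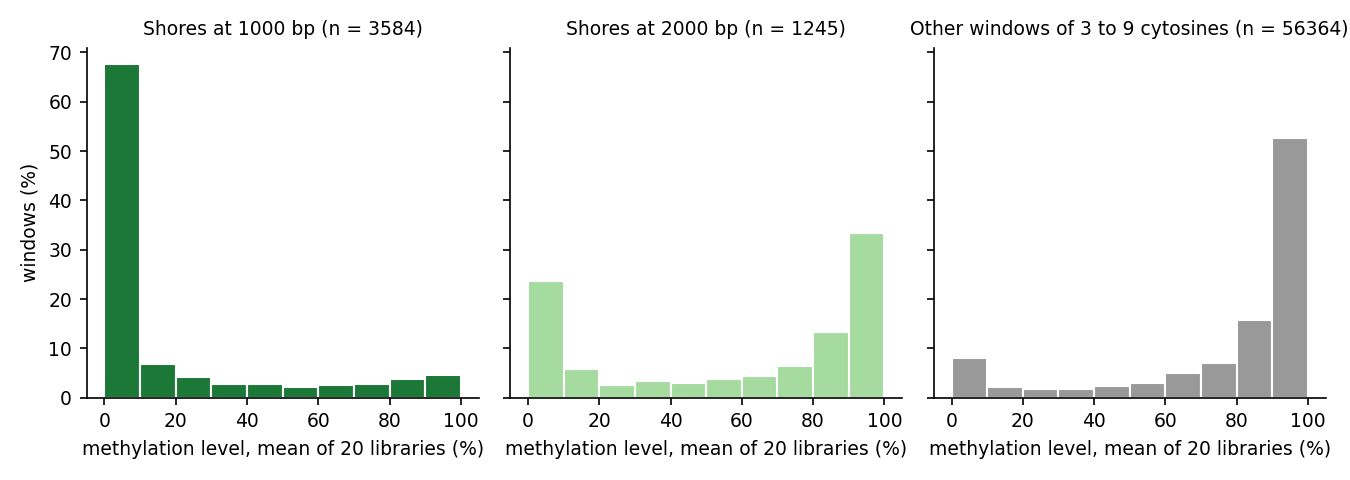
Distribution of the methylation level (x axis, mean of 20 libraries, in percent) over windows (y axis, percent of windows in each bin of 10 points) for shores at 1000 bp, shores at 2000 bp and other windows of 3 to 9 cytosines. The 3584 shores at 1000 bp pile up below 10%, the 1245 shores at 2000 bp split between both ends, and the 56364 other windows pile up above 90%.

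The mean level of single cytosines rose most over the first 800 bp from the edge of the anchor window. These means mix low and high shores, so they do not give the length of a transition at a single locus. The edges are those of the fixed windows, not of the CpG-dense stretch. In the first 200 bp from the edge of the anchor window, 11639 shore cytosines averaged 5.29%, and 88.8% of them were below 10%. The mean was 19.4% at 200 to 400 bp, 33.7% at 400 to 600 bp and 44.6% at 600 to 800 bp. It then changed little up to 1200 bp, where it was 46.2%, and reached 55.6% at 1200 to 1400 bp and 57.8% at 1400 to 1600 bp. The share of cytosines above 80% was 1.66% in the first 200 bp and 51.5% at 1600 to 1800 bp. The profile hardly differed between libraries, which ranged from 5.03 to 5.62% in the first bin and from 32.7 to 35.3% at 400 to 600 bp. Cytosines with the anchor at lower coordinates averaged 5.29% in the first 200 bp and those with it at higher coordinates 5.28%, while at 1400 to 1600 bp these means were 62.0% and 53.3%. Of the shore cytosines, 45.7% lie in those first 200 bp, and the level of a shore at 1000 bp went with how far its cytosines reach. The 1537 shores whose cytosines all lie within 200 bp averaged 4.94%, the 800 that reach 200 to 400 bp averaged 15.5%, and the 1247 that reach beyond 400 bp averaged 35.0%.

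**Figure D2:**
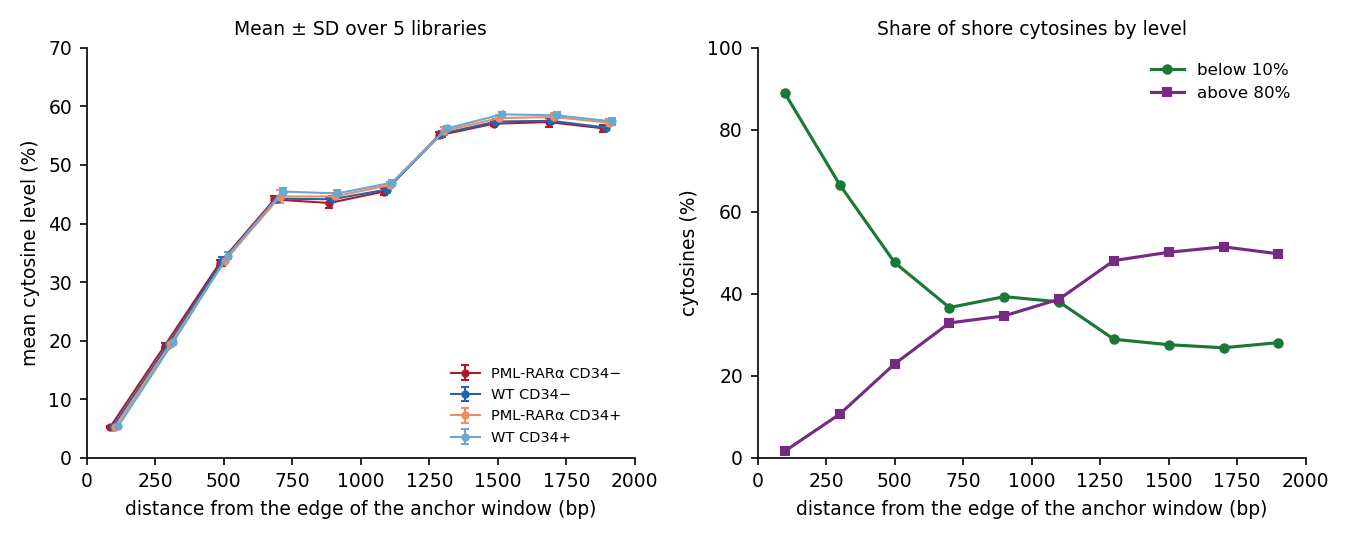
Mean level of shore cytosines in percent (left, mean ± SD over the 5 libraries of each group) and share of cytosines in percent with a mean level below 10% or above 80% (right), against the distance in bp from the edge of the anchor window in bins of 200 bp. The 4 groups lie on top of each other, with 5.29% over all libraries in the first bin and 57.8% at 1400 to 1600 bp.

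Intermediate shores were partly steps between low and high cytosines. The 915 shores with a level of 20 to 80% had a median range of 50.8 points between their lowest and highest cytosine. Of these, 235 (25.7%) held a cytosine below 20% together with one above 80%, and in 170 (18.6%) every cytosine lay between 20 and 80%. Among 12079 other sparse windows of 20 to 80%, these shares were 35.5% and 15.7%, and the median range was 55.2 points. Over the shores of any level, 267 held both a cytosine below 20% and one above 80%, and in 208 of them (77.9%) the high cytosines lay farther from the anchor. Shores of intermediate level also differed more between libraries of a group, with a median within-group SD of 8.73 points in shores and 8.12 points in other sparse windows of 20 to 80%, against 0.629 points in shores below 10%.

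The level of a shore also went with the anchors around it. The 116 shores with an anchor on both sides averaged 12.1%, against 28.4% for those with an anchor at lower coordinates only and 28.3% for those with one at higher coordinates only. On 1 side at 1000 bp, shores averaged 16.2% beside a single anchor window, 27.0% beside a run of 2 and 19.1% beside a run of 3 or more. At 2000 bp these means were 59.6%, 55.3% and 39.2%, so longer runs did not go with lower shores at both distances. Shores of anchors below 0.2% averaged 25.2%, and those of anchors between 5 and 10% averaged 38.2%. The 22 shores of anchors between 9 and 10%, just inside the limit, averaged 54.5%, and 19 sparse windows beside dense windows of 10 to 11%, just outside it, averaged 34.8%. Sparse windows beside methylated dense windows above 80% averaged 82.97% (135 windows), not lower than other sparse windows. At 2000 bp the window between also differed, since the mean was 64.7% where it held fewer than 3 covered cytosines, 52.7% where it held 3 to 9, 40.2% where it held 10 to 19 and 61.3% in the 31 shores where it held 20 or more, so there was no steady fall with its density.

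The number of covered cytosines went with the level. Shores of 3 cytosines averaged 39.1% and shores of 9 averaged 14.0%, against 79.7% and 64.6% in the other sparse windows of 3 and 9 cytosines. Windows of 10 cytosines at the same distances, just outside the rule, averaged 14.9% (372 windows). At 1000 bp alone the means were 26.2% for 3 and 9.21% for 9 cytosines, so the relation with the cytosine number was present among windows next to an anchor. How far the cytosines reach from the anchor was not held fixed there.

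The flanks of a single anchor often differed. Of 317 runs of anchors with a shore on both sides, 123 (38.8%) had both below 10%, 37 had one below 10% and the other above 80%, and 2 had both above 80%. As a description over these 317 runs, whose shores share libraries and depth, the levels of the 2 sides had a Pearson r of 0.06 and a Spearman rho of 0.10. Among the 3 anchors with shores at all 4 positions, the one at chr1:91838001-91839000 had levels of 8.07, 0.0385, 0.415 and 6.05% in its shores at 2000 and 1000 bp below and at 1000 and 2000 bp above it. The flanks of this anchor were thus below 10% throughout. The anchor at chr19:4215001-4216000 had 0.191 and 0.358% below it, but 11.5% at 1000 bp and 81.0% at 2000 bp above it. The anchor at chr19:45154001-45155000 was open on the other side, with 54.4 and 69.5% at 2000 and 1000 bp below it and 0.442 and 0.235% above it. In each of these 2 anchors, methylation rose on 1 side and stayed low on the other in the mean of all 4 groups.

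Between genotypes, no shore was called in either fraction. A window was called where its adjusted p, from an F test on read counts in a quasi-binomial model with Benjamini-Hochberg adjustment over 84524 windows, was below 0.05 and its group means differed by at least 10 points. In CD34+ cells, 0 of 4829 shores were called between PML-RARα and WT mice, as were 0% of all windows (background 0%), and limma on logit levels also called 0. In CD34− cells the count was again 0 with both tests, against a background of 0%. At an unadjusted p below 0.05 there were 240 shores in CD34+ cells (4.97%, against 4.39% of all windows) and 379 in CD34− cells (7.85%, against 8.03%), shares near the background. Differences of at least 10 points were seen in 147 shores in CD34+ cells, of which 95 were lower and 52 higher in PML-RARα, and in 117 shores in CD34− cells, of which 69 were lower and 48 higher. These are 3.04 and 2.42% of the shores, against 2.44 and 1.85% of all windows, of which the lower ones made up 64.6 and 59.0% in shores and 69.2 and 56.4% in all windows. Of the shores, 25 were in both lists (17.0% of the first and 21.4% of the second), and 12 of the 25 had the same sign in both fractions. This overlap was not counted over all windows, so it is a description only. Whether the fraction difference depends on genotype was tested by the interaction term, which called 0 shores against a background of 0%, with 246 at an unadjusted p below 0.05 (5.09%, against 5.19% of all windows). With limma on logit levels the interaction also called 0.

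The mean over all shores differed little between the genotypes. Early promyelocytes averaged 28.0 ± 0.337% in the PML-RARα group against 28.4 ± 0.364% in the WT group (mean ± SD, n = 5 each), or −0.37 points. Late ones averaged 27.6 ± 0.349% in the PML-RARα group against 27.8 ± 0.314% in the WT group, or −0.18 points. The libraries of the genotypes overlapped in both fractions. Within flowcells the early cells differed by −0.11 points in B and −0.46 in D, and the late cells by −0.24 points in A and −0.07 in B.

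The shores of smallest p between genotypes had modest differences that did not pass the adjusted threshold. The shore at chr17:35401001-35402000, next to an anchor at lower coordinates, had levels of 32.3, 31.4, 51.2, 42.3 and 45.8% in PML-RARα CD34− libraries and 50, 59.4, 60.8, 56.5 and 61.9% in WT CD34− libraries. Its levels were 39.8, 57.4, 36.7, 45.8 and 47.5% in PML-RARα CD34+ libraries and 50.4, 55.3, 62.6, 57.4 and 64.1% in WT CD34+ libraries. The genotypes overlapped in both fractions, with 1 PML-RARα library of each fraction within the WT range. PML-RARα differed by −17.2 points in late cells (adjusted p = 0.211) and by −12.5 points in early cells (adjusted p = 0.839).

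The shore at chr11:102877001-102878000 took a different mean level in each of the 4 groups. Its levels were 40.3, 26.3, 40.8, 43.8 and 37.5% in PML-RARα CD34− libraries and 58.5, 50.8, 64.8, 46.5 and 50.2% in WT CD34− libraries. They were 63.7, 68.0, 51.8, 49.6 and 60.1% in PML-RARα CD34+ libraries and 77.3, 77.5, 72.4, 67.7 and 68.9% in WT CD34+ libraries. The genotypes did not overlap in CD34− cells, and in CD34+ cells 1 PML-RARα library reached the WT range. Between genotypes it differed by −16.4 points in late cells (adjusted p = 0.329) and −14.1 points in early cells (adjusted p = 0.851), and the fraction difference was −20.9 points in PML-RARα (adjusted p = 0.0917) and −18.6 points in WT mice (adjusted p = 0.0546). None of these 4 differences passed the threshold. Its cytosines ran from high to low toward the anchor, from 95.6% in WT CD34− and 86.1% in WT CD34+ libraries at position 102877165 to 22.2% and 58.8% at position 102877360.

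The other shores of smallest p between genotypes had small differences or levels near 0 or 100%. In CD34+ cells, chr7:25020001-25021000 had 99.1 ± 1.25% in PML-RARα and 94.1 ± 1.39% in WT libraries, and chr4:151415001-151416000 had 98.8 ± 1.21% and 93.2 ± 2.62%. The libraries did not overlap at these shores, yet the adjusted p were 0.872 and 1. The shore at chr4:104039001-104040000 was near 0 in early cells, at 2.34 ± 1.71% in the PML-RARα group and 0.508 ± 0.52% in the WT group. In CD34− cells, chr1:174076001-174077000 had 96.7 ± 2.66% in PML-RARα and 86.1 ± 6.15% in WT libraries without overlap (adjusted p = 0.413). The shore at chr1:14746001-14747000 had 7.65 ± 5.31% and 1.26 ± 1.36%, and chr4:49071001-49072000 had 0.0957 ± 0.127% and 2.69 ± 2.00%. At chr3:83644001-83645000 both groups were near 0, with 0.666 ± 1.36% in the PML-RARα group and 0.0631 ± 0.141% in the WT group of late cells. The interaction had its smallest p at chr7:25020001-25021000 (−10.3 points, adjusted p = 0.809), and the 3 shores of smallest p in the other direction were chr5:137736001-137737000 (24.7 points, adjusted p = 0.911), chr17:26089001-26090000 (3.41 points) and chr9:54872001-54873000 (14.4 points). The others of its own direction were chr15:38232001-38233000 (−1.27 points) and the chr4:49071001-49072000 shore (−3.36 points). Among these interaction shores, chr5:137736001-137737000 and chr9:54872001-54873000 had intermediate mean levels, of 44.8 and 65.9%.

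During maturation in WT mice, 17 shores were called between CD34− and CD34+ cells, 16 lower and 1 higher in CD34− cells. These 17 are 0.352% of the shores, against 0.45% of all windows called in this comparison, and 310 shores (6.42%, against 6.18% of all windows) had an unadjusted p below 0.05. The 16 lower ones are 0.331% of the shores, against 0.394% of all windows. The single higher one is 0.0207%, against 0.0556%. With both directions together, the share called was near that of all windows tested, which include 12660 anchors with 0 calls. Of the 17, 6 lay at 1000 bp (0.167% of those shores) and 11 at 2000 bp (0.884%), and 12 had an intermediate mean level of 20 to 80%. They were spread over 11 chromosomes, did not adjoin each other and held 3 to 8 cytosines. The other sparse windows were called in 0.601% of cases. Among shores of 20 to 80% the share called was 1.31%, against 2.03% of other sparse windows of that level. The median difference of the lower ones was −25.3 points, and the adjusted p ranged from 9.53e-05 to 0.0482. The libraries of CD34− and CD34+ cells did not overlap in 16 of the 17, and the sign was the same within each of flowcells A, B and D in all 17, where B holds 1 WT library of each fraction. Both follow largely from the call on these same libraries and add no support to it. The share of all windows without overlap was not computed. With limma on logit levels, 4 of the 17 kept their call, at chr6:66985001-66986000, chr6:98980001-98981000, chr17:87663001-87664000 and chr19:5570001-5571000.

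**Figure D3:**
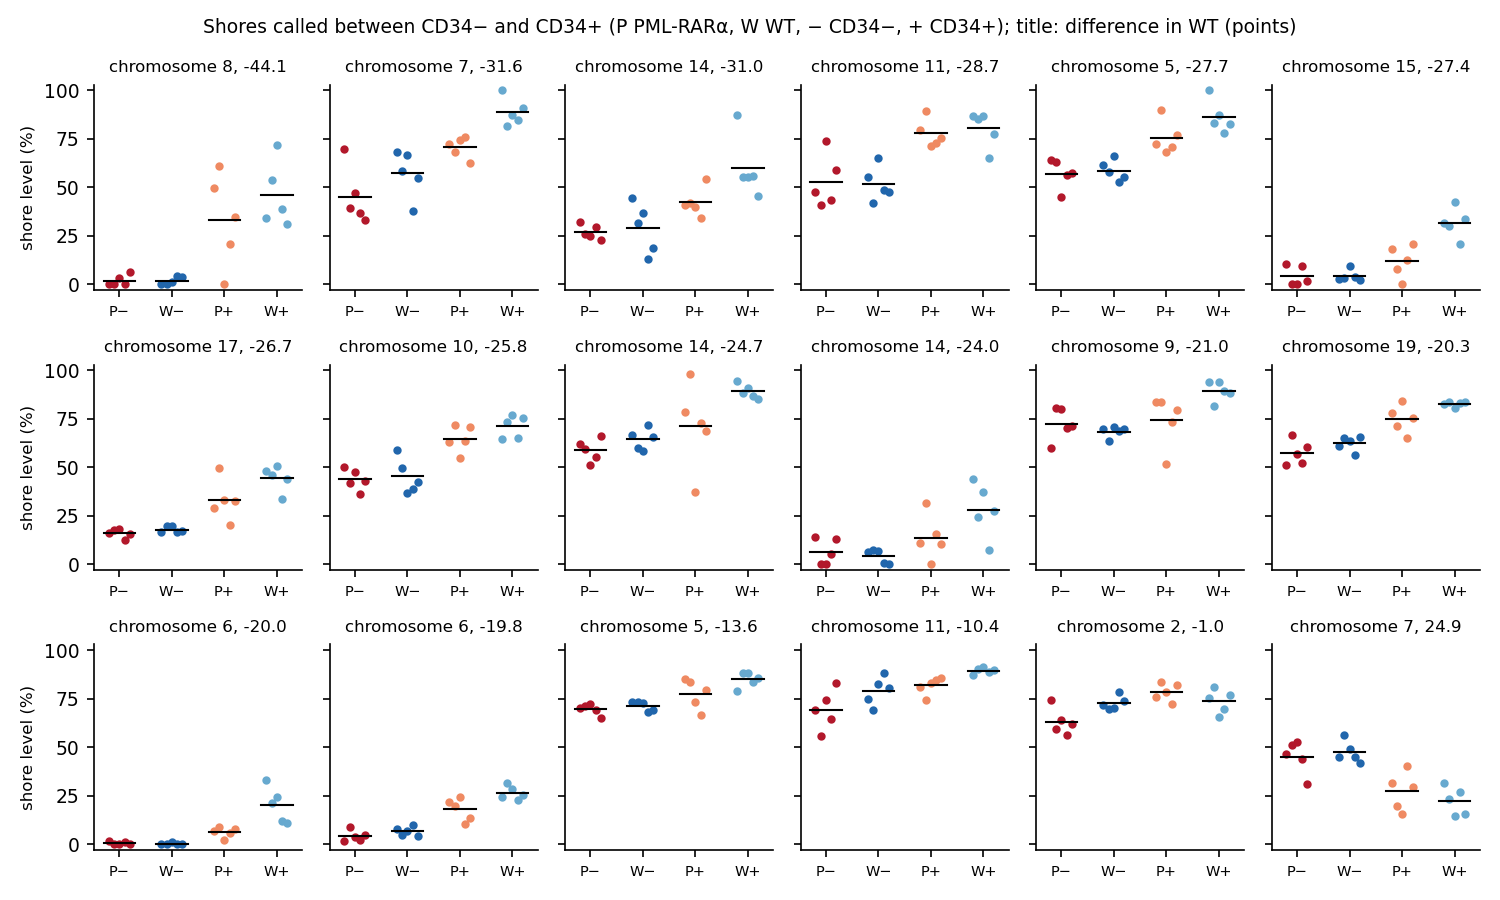
Level in percent (y axis) of the 18 shores called between fractions in WT or PML-RARα mice, in each library (points) with the group mean (line). P− and P+ are PML-RARα CD34− and CD34+, W− and W+ are WT CD34− and CD34+. Panels are ordered by the WT difference, CD34− minus CD34+, from −44.1 to 24.9 points, and the chromosome 2 shore was called in PML-RARα mice alone.

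The largest loss was at chr8:122096001-122097000, 2000 bp before an anchor. This shore had 0, 0, 1.20, 4.16 and 3.59% in WT CD34− libraries and 34.1, 53.8, 72.0, 38.8 and 30.9% in WT CD34+ libraries. It thus was almost unmethylated in every CD34− library and partly methylated in every CD34+ library. The late cells averaged 1.79 ± 1.98% and the early ones 45.9 ± 17.0%, which gives −44.1 points (adjusted p = 0.00169). In PML-RARα mice it had 0, 0, 3.29, 0 and 6.25% in CD34− libraries and 49.5, 61.2, 0, 21.0 and 34.7% in CD34+ libraries, where library 11 was at 0. That difference was −31.4 points (adjusted p = 0.0917). Its 3 cytosines lie within 36 bp of each other, and its coverage summed over them was 44 to 666 per library. A read is counted at each cytosine it covers, and the lowest coverage of a single cytosine in a library was 14 reads.

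Losses of a similar kind, down to a few percent, were seen at 4 further shores. The shore at chr6:66985001-66986000 had 0, 0.426, 1.29, 0 and 0.31% in WT CD34− libraries and 33.1, 21.5, 24.6, 12.0 and 10.9% in WT CD34+ libraries (−20.03 points, adjusted p = 9.53e-05). Every CD34− library was thus below every CD34+ library. In PML-RARα CD34+ libraries the level was 7.12, 8.73, 2.16, 6.02 and 7.89%, below the WT range, and the genotype difference of −14.04 points there had an adjusted p of 0.675. Its fraction difference in PML-RARα mice had an adjusted p of 0.0465 but, at −5.80 points, was under the 10 points required. At chr15:79570001-79571000 the levels were 2.84, 3.40, 9.66, 3.55 and 2.02% in WT CD34− libraries and 31.4, 30.1, 42.6, 20.8 and 33.8% in WT CD34+ libraries (−27.4 points, adjusted p = 0.00159). At chr6:98980001-98981000 they were 7.96, 4.78, 6.62, 9.73 and 4.22% in WT CD34− and 24.5, 31.5, 28.3, 22.7 and 25.5% in WT CD34+ libraries (−19.8 points, adjusted p = 0.00145). Here too the fractions were apart by more than the spread within them. At chr14:61401001-61402000 they were 6.36, 7.21, 6.89, 0.526 and 0% in WT CD34− and 44.1, 24.5, 37.1, 7.62 and 27.7% in WT CD34+ libraries (−24.0 points, adjusted p = 0.0184), a gap of less than 1 point between the nearest libraries. Without WT CD34+ library 9 or WT CD34− library 16 or 18 the call at this last shore was lost, with an adjusted p of up to 0.092.

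At further shores part of the methylation was still there in CD34− cells. The shore at chr17:87663001-87664000 had 16.5, 19.7, 19.6, 16.6 and 17.1% in WT CD34− libraries and 48.3, 46.2, 50.8, 33.5 and 44.1% in WT CD34+ libraries (−26.7 points, adjusted p = 0.000362). In PML-RARα mice it had 16.1, 17.8, 18.3, 12.5 and 15.9% in CD34− libraries and 29.0, 49.5, 33.3, 20.3 and 32.5% in CD34+ libraries, a difference of −16.8 points that was also called (adjusted p = 0.0496). The fractions did not overlap in either genotype. At chr5:134930001-134931000 the levels were 61.4, 58.1, 66.0, 52.5 and 55.1% in WT CD34− and 100, 83.4, 87.4, 78.2 and 82.5% in WT CD34+ libraries (−27.7 points, adjusted p = 0.00111). At chr10:126604001-126605000 they were 58.7, 49.5, 37.0, 38.8 and 42.6% in WT CD34− and 64.7, 73.4, 76.9, 65.3 and 75.4% in WT CD34+ libraries (−25.8 points, adjusted p = 0.00299). In both shores the CD34− libraries stayed below all CD34+ libraries.

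The shore at chr19:5570001-5571000, with 8 cytosines, was called in both genotypes. It had 51.1, 66.7, 56.9, 52.1 and 60.5% in PML-RARα CD34− libraries and 78.0, 71.1, 84.2, 65.1 and 75.4% in PML-RARα CD34+ libraries, with 1 overlapping library on each side (−17.3 points, adjusted p = 0.0345). In WT mice it had 61.2, 65.3, 63.5, 56.4 and 65.5% in CD34− and 82.4, 83.7, 80.4, 83.4 and 83.5% in CD34+ libraries, which were apart (−20.3 points, adjusted p = 0.00362). All 8 cytosines were lower in WT CD34− than in WT CD34+ libraries.

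Within 4 other shores the loss was uneven along the DNA, larger at the cytosine nearest to the anchor than at the farthest. At chr14:22669001-22670000, which follows its anchor by 2000 bp, the cytosine nearest to the anchor had 28.9% in WT CD34− and 83.9% in WT CD34+ libraries, while the farthest, 605 bp from it, had 96.0 and 96.8%. The whole shore had 66.6, 59.8, 58.7, 71.7 and 65.8% in WT CD34− and 94.5, 88.5, 91.0, 86.9 and 85.4% in WT CD34+ libraries (−24.7 points, adjusted p = 0.0248). At chr11:75399001-75400000, 2000 bp before its anchor, the nearest cytosine had 40.5 and 74.1% in WT CD34− and CD34+ libraries and the farthest had 92.4 and 96.8%. Both shores therefore kept a methylated outer end, and the difference lay on the side of the anchor. The chr11:75399001-75400000 shore had 55.4, 42.0, 64.9, 48.4 and 47.6% in WT CD34− and 86.7, 85.5, 86.9, 65.1 and 77.5% in WT CD34+ libraries (−28.7 points, adjusted p = 0.0147). At chr14:63742001-63743000 the nearest cytosine had 3.89% in WT CD34− and 49.6% in WT CD34+ libraries, and the farthest had 56.7 and 87.3%. At chr7:148646001-148647000 the nearest had 27.1 and 82.7%, and the farthest had 49.8 and 84.6%. These 4 were picked for this pattern after their values were seen. Over the 17 called shores the nearest cytosine had the larger difference in 9 and the farthest in 8, and 74 of their 76 cytosines moved in the direction of their shore. The last count follows largely from the call, which rests on the same cytosines.

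The calls at these 4 shores leaned on single libraries. Without WT CD34+ library 1, whose 87.2% at chr14:63742001-63743000 stood above 45.5 to 56.1% in the other 4, the call there was lost, as it was without WT CD34+ library 7, 9 or 15 or WT CD34− library 8, 16 or 18, with an adjusted p of up to 0.174 (−31.0 points, adjusted p = 0.0455 with all libraries). The call at chr7:148646001-148647000 (−31.6 points, adjusted p = 0.0253) was lost without WT CD34+ library 1, 9 or 17 or WT CD34− library 8, 16 or 18, with an adjusted p of up to 0.109. The call at chr14:22669001-22670000 was lost without WT CD34+ library 1, 7, 9 or 17 or WT CD34− library 8, 10 or 18, with an adjusted p of up to 0.0925. The call at chr11:75399001-75400000 was lost without WT CD34+ library 7 or 9 or WT CD34− library 16 or 18, with an adjusted p of up to 0.092.

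The other called losses were at chr9:110237001-110238000 (68.4 ± 2.87% in WT CD34− and 89.5 ± 5.11% in WT CD34+ libraries, adjusted p = 0.00997), chr5:142941001-142942000 (71.4 ± 2.58% and 85.0 ± 3.77%, adjusted p = 0.00742) and chr11:115889001-115890000 (79.2 ± 7.24% and 89.5 ± 1.49%, adjusted p = 0.0482). The last was the shore whose fractions overlapped, and its call was lost without any of 8 libraries, WT CD34+ 1, 7, 9, 15 or 17 and WT CD34− 2, 8 or 18, with an adjusted p of up to 0.326. The call at chr5:142941001-142942000 was lost without WT CD34+ library 9 (adjusted p = 0.0556), and that at chr9:110237001-110238000 without WT CD34+ library 9 or 17 (up to 0.0671).

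A single shore gained methylation in WT CD34− cells. The shore at chr7:31757001-31758000, just before its anchor, had 45.0, 56.2, 49.1, 44.9 and 41.7% in WT CD34− libraries and 31.4, 23.6, 14.5, 27.0 and 15.8% in WT CD34+ libraries (24.9 points, adjusted p = 0.0125). The fractions were apart, and the call was lost without WT CD34+ library 9 or 17 (adjusted p of up to 0.0784). Its 6 cytosines formed a slope that was higher in CD34− cells along its whole length, with 93.9% in WT CD34− and 66.3% in WT CD34+ libraries at 314 bp from the anchor window, and 28.1 and 13.3% at 123 bp. In PML-RARα mice it had 46.6, 51.1, 52.8, 43.8 and 31.1% in CD34− and 31.8, 19.9, 15.8, 40.5 and 29.7% in CD34+ libraries (17.6 points, adjusted p = 0.403).

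The anchors were chosen for a mean below 10%, which limits how far they can differ, so their values are given as a description. Beside the 18 shores called in either genotype, the anchor windows had a median level of 0.11%. The largest difference of an anchor was 5.49 points lower in WT CD34− than in WT CD34+ libraries, beside the chr7:148646001-148647000 shore, where the anchor itself had 4.74 ± 1.45% in WT CD34− and 10.2 ± 5.73% in WT CD34+ libraries. This anchor, at a mean of 7.08%, was the highest of the 18. In PML-RARα mice the largest anchor difference was 1.85 points.

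**Figure D4:**
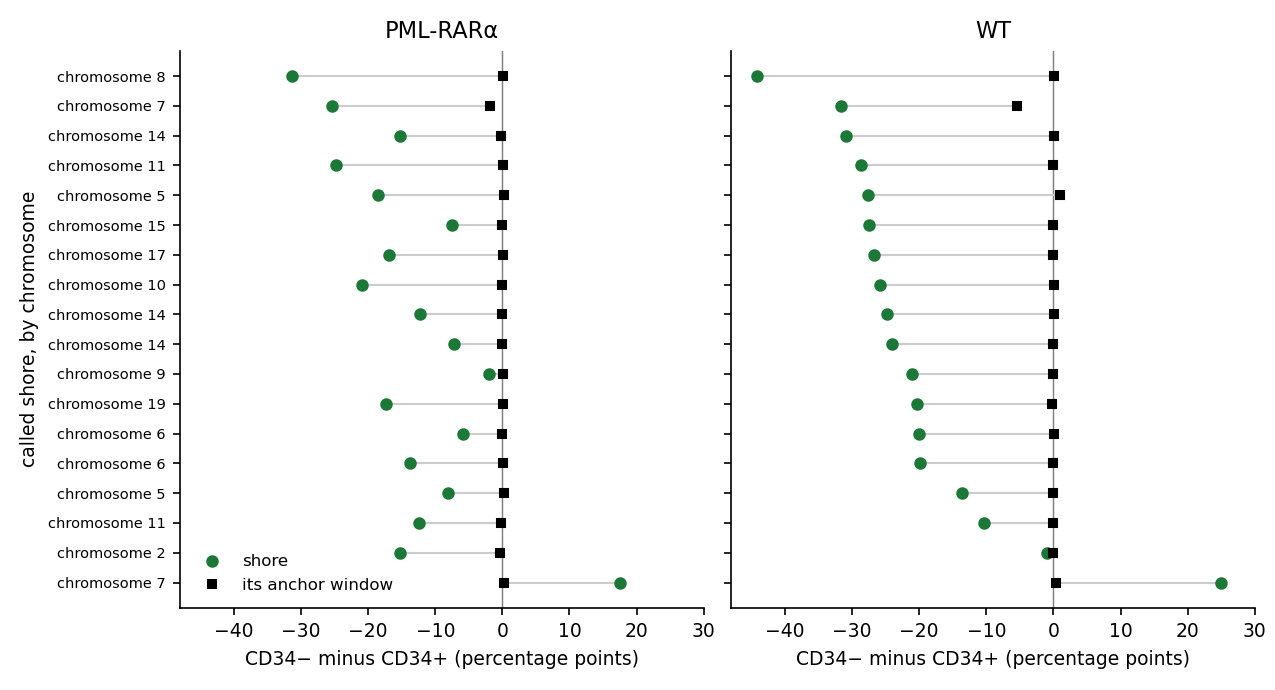
Difference between CD34− and CD34+ libraries (x axis, CD34− minus CD34+ in percentage points) for the 18 called shores (circles) and the anchor window beside each (squares), in PML-RARα mice (left) and WT mice (right), ordered by the shore difference in WT mice (y axis, named by chromosome). The squares, whose level the rule keeps below 10%, lie near 0 except for 1 anchor on chromosome 7 that differed by 5.49 points in WT mice.

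In PML-RARα mice 3 shores were called between fractions, each lower in CD34− cells, which is 0.0621% of the shores against 0.0722% of all windows (0.0615% lower and 0.0106% higher). At an unadjusted p below 0.05 there were 436 shores (9.03%, against 9.59% of all windows). Besides the chr17:87663001-87664000 and chr19:5570001-5571000 shores described above, the third was chr2:164738001-164739000. It had 74.5, 59.4, 64.1, 56.2 and 62.2% in PML-RARα CD34− libraries and 76.0, 83.6, 78.5, 72.4 and 82.2% in PML-RARα CD34+ libraries, with 1 CD34− library inside the CD34+ range (−15.3 points, adjusted p = 0.0465). In WT mice it had 72.8 ± 3.56% in CD34− and 73.8 ± 6.01% in CD34+ libraries, a difference of −0.96 points. The interaction at this shore was −14.3 points and was not called. With the # number of the titles as a factor, an alternative chosen after seeing the data, these 3 calls were lost and 1 other shore was called. All 3 calls depended on single libraries. The count was 0 without PML-RARα CD34+ library 3 or 19 or PML-RARα CD34− library 14 or 20, 1 without CD34+ library 5 (a higher one) or CD34− library 12, and 5 without CD34+ library 13.

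The higher shores of smallest p in PML-RARα CD34− cells did not pass the adjusted threshold. They were chr10:77440001-77441000 (68.5 ± 17.9% in PML-RARα CD34− and 40.8 ± 12.3% in PML-RARα CD34+ libraries, adjusted p = 0.142), chr19:45219001-45220000 (15.8 ± 6.36% and 4.64 ± 2.99%, adjusted p = 0.167) and chr9:54872001-54873000 (68.3 ± 8.97% and 55.7 ± 8.22%, adjusted p = 0.178).

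Set side by side, the 17 shores called in WT mice differed in the same direction in PML-RARα mice, with medians of −13.8 points in PML-RARα and −24.7 points in WT mice. For the 16 lower ones the PML-RARα difference ranged from −31.4 to −2.02 points and the WT difference from −44.1 to −10.4 points. Since the shores were called in WT mice, the larger WT values are partly given by that choice, and the interaction called none of them. At the same 16 shores PML-RARα CD34+ libraries were lower than WT CD34+ libraries by 2.58 to 19.9 points, with a median of −12.1 points, and PML-RARα CD34− libraries differed from WT CD34− libraries by −12.05 to 3.98 points, with a median of −1.64. The WT CD34+ libraries enter the maturation comparison that chose these shores as well as the genotype comparison in CD34+ cells, and no genotype difference was called at any of them.

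Over all shores the mean level was slightly lower in CD34− than in CD34+ cells. In WT mice the 5 late libraries averaged 27.8 ± 0.314% against 28.4 ± 0.364% in the 5 early ones (± SD), or −0.65 points, and the libraries overlapped. The difference was −0.87 points within flowcell A, −0.62 in B and −0.45 in D. In PML-RARα mice the late libraries averaged 27.6 ± 0.349% against 28.0 ± 0.337% in the early ones, or −0.46 points, and −0.58 points within flowcell B. The other sparse windows differed by −1.16 points in WT and −0.72 points in PML-RARα mice, but hold more methylated windows. Among windows of 20 to 80%, the difference was −2.05 points in shores and −2.11 in other sparse windows of WT mice, and −1.49 and −1.23 in PML-RARα mice. Above 80% it was −0.95 points in both kinds of window in WT mice, and −0.79 in shores and −0.63 in other sparse windows of PML-RARα mice.

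In both genotypes the shift was larger at 2000 than at 1000 bp, and among level classes it was largest at 20 to 80%. At 2000 bp the WT mean was 57.0 ± 0.37% in CD34− and 58.2 ± 0.45% in CD34+ libraries, which did not overlap, although the highest CD34− and the lowest CD34+ library were nearly equal at 57.6%. The difference was −1.18 points, and −1.43, −1.27 and −0.88 points within flowcells A, B and D. At 1000 bp it was −0.47 points with overlap. In PML-RARα mice the differences were −0.95 points at 2000 bp and −0.29 at 1000 bp, with overlap at both. By level class they were 0.00386 points below 10%, −0.60 at 10 to 20%, −1.49 at 20 to 80% and −0.79 above 80%. Shores below 10% had means of 1.69 ± 0.0839% in CD34− and 1.76 ± 0.0737% in CD34+ WT libraries, shores of 10 to 20% had 14.0 ± 0.632% and 14.9 ± 0.905%, shores of 20 to 80% had 49.4 ± 0.931% and 51.5 ± 1.19%, and shores above 80% had 90.7 ± 0.338% and 91.6 ± 0.303%. By distance, the WT difference was −0.08 points in the first 200 bp, −0.46 at 200 to 400 bp and −1.22 at 600 to 800 bp, after which it stayed between −0.90 and −1.23 points. Shores that differed by at least 10 points numbered 141 in WT mice, of which 108 were lower and 33 higher in CD34− cells, and 224 in PML-RARα mice, of which 147 were lower and 77 higher. These are 2.92 and 4.64% of the shores, against 2.59 and 3.82% of all windows, and the lower ones made up 76.6 and 65.6% of them in shores and 77.8 and 66.0% in all windows. Of the shores, 56 were in both lists, 39.7% of the WT list and 25% of the PML-RARα list, and 41 of the 56 were lower in both. Over all windows the overlap was 37.2% and 25.1%, close to that of the shores.

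**Figure D5:**
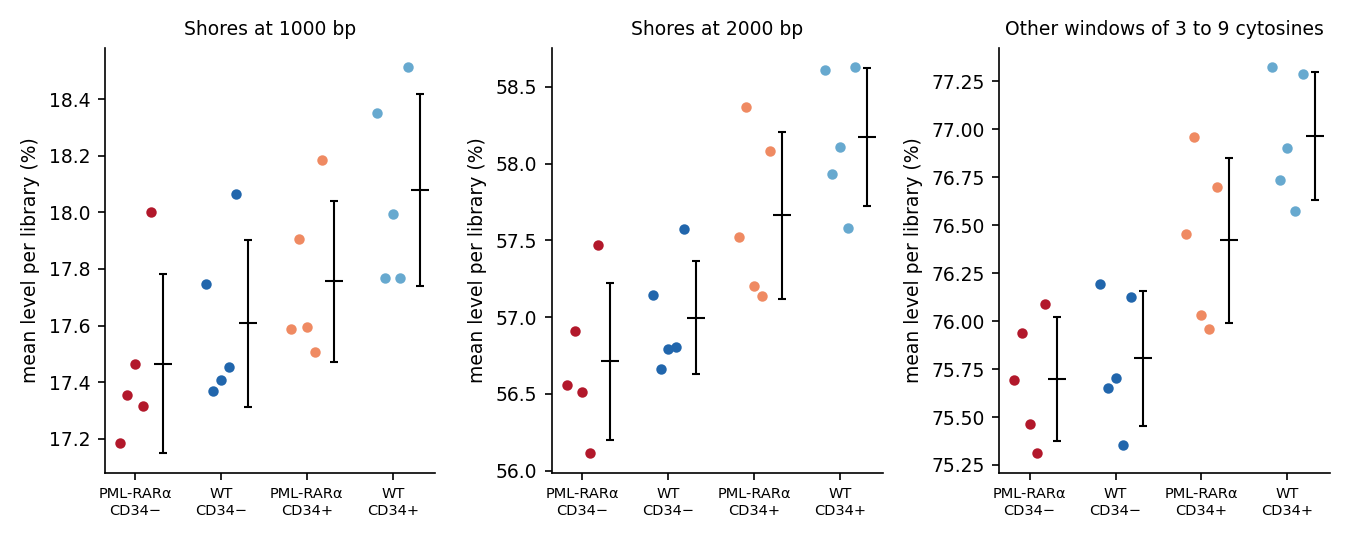
Mean level in percent (y axis, not starting at 0) of each library (points) with the group mean ± SD of 5 libraries (black), for shores at 1000 bp, shores at 2000 bp and other windows of 3 to 9 cytosines. At 2000 bp the WT CD34− libraries lie between 56.7 and 57.6% and the WT CD34+ libraries between 57.6 and 58.6%.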

How the data were processed

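The 20 libraries were made by ERRBS. CASAVA 1.8.2, Bismark and the mm9 build are named by the authors, per the submitters' processing notes, without a role for each. The deposited values are, per the file headers, a count of reads covering each CpG cytosine (coverage) and the percent of those reads with C and with T. No cytosine below 10 reads was listed. Methylated reads were computed as coverage times percent C, rounded, and came out whole at 100% of cytosines within what 2-decimal percents allow. A window's level is its summed methylated reads over its summed coverage.

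Groups were taken from the labels. Reads of each window with 3 or more shared cytosines entered a logistic regression of quasi-binomial family on group, over all 20 libraries. The overdispersion (16 residual degrees of freedom) was shrunk with limma's squeezeVar scheme, whose prior had 3.07, and kept at 1 or above. F tests were two-sided, adjusted by Benjamini-Hochberg over 84524 windows. Python 3.11.15, numpy 2.4.6, pandas 2.3.3, scipy 1.17.1, matplotlib 3.10.9, R 4.3.3 and limma 3.58.1 were used, and the test was checked on simulated data. Named per comparison were the 10 called shores with the largest increase and the 10 with the largest decrease, or the 3 of smallest p where none was called, and the 6 further called shores were added with values in view. The members and lists were chosen with earlier results of these data known. Alternatives covered coverage, cytosine and anchor limits, the window grid, denominators, flowcell, limma on logit levels and leaving out libraries. Gene annotation and sequence of mm9 and the sex chromosomes were not analysed here.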

Additional observations from a re-analysis of the deposited data

Results flagged for a closer look

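Among 144 groups of 5 libraries checked, 10 had 1 library far from the other 4 by Dixon's criterion (a gap over 0.71 of the range), where chance gives 7.2. At chr14:63742001-63743000, WT CD34+ library 1 had 87.2%, against 45.5 to 56.1% in the other 4. At chr15:79570001-79571000, WT CD34− library 10 had 9.66%, against 2.02 to 3.55%. The mean level over the shores was 28.2% in PML-RARα CD34− library 20, against 27.3 to 27.6%. The other 7 lie at 3 shores named above with low levels. At chr1:14746001-14747000, PML-RARα CD34+ library 11 had 10.5%, against 0 to 2.88%, and WT CD34+ library 1 had 0%, against 1.98 to 2.73%. At chr3:83644001-83645000, PML-RARα CD34− library 6 had 3.10%, against 0 to 0.227%, WT CD34− library 8 had 0.315% and WT CD34+ library 17 had 0.142%, against 0% in the libraries beside them. At chr15:38232001-38233000, PML-RARα CD34− library 12 had 0.176% and WT CD34+ library 17 had 0.102%, against 0%.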

How the results depend on the processing

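The genotype comparisons and the interaction called 0 shores under every alternative run. The 17 calls of WT maturation became 22 on a grid shifted by 500 bp, 21 without 5 libraries of high scatter (WT CD34+ 1, PML-RARα CD34+ 5 and 11, PML-RARα CD34− 6 and 12), 16 in a fit of the 2 groups alone and 13 with flowcell as a factor, but 6 at a coverage minimum of 20, 6 with at least 5 cytosines, 6 at 1000 bp alone, 11 at 2000 bp alone and 4 with limma on logit levels. Leaving out 1 library gave 8 to 18 calls, the lowest without WT CD34+ library 9 and 11 without WT CD34− library 18; 8 of the 17 held whichever of the 10 libraries was dropped, and 4 of these, at chr17:87663001-87664000, chr19:5570001-5571000, chr6:66985001-66986000 and chr6:98980001-98981000, held with limma too. The 3 calls of PML-RARα maturation became 0 at a coverage minimum of 20, with flowcell, with limma and in a fit of the 2 groups alone, 1 at 1000 bp alone and at a minimum of 5 cytosines, 1 when the 5 libraries of high scatter were dropped, 7 on the shifted grid, and 0 to 5 without 1 library. The mean differences over shores kept their sign. At 2000 bp alone they were −0.95 points in PML-RARα and −1.18 in WT mice, and with 1 library left out they ranged from −0.61 to −0.36 in PML-RARα maturation, −0.77 to −0.54 in WT maturation, −0.48 to −0.26 between genotypes in CD34+ and −0.33 to −0.06 in CD34− cells. The chr3:83644001-83645000 difference (0.60 points) ranged from −0.0064 without PML-RARα CD34− library 6 to 0.769 with another library left out, and was −0.0631 without the 5 libraries of high scatter. Denominators of C and T reads alone, chosen after seeing the data, gave 17 and 3 calls. The # number of the titles as a factor, also chosen then, gave 15 in WT and 1 in PML-RARα mice. Consecutive title numbers as pairs gave 9 calls in WT and 3 in PML-RARα mice. To compare the pairs, the group mean was subtracted from the level of each library in 14695 windows with a mean level of 20 to 80%. The remaining deviations, not the levels themselves, correlated between the libraries of a pair at −0.06 to 0.22, above 0.1 in 3 of 10 pairs. In 6 of 10 pairs this exceeded the correlation of 1 member with any other library of its genotype in the opposite fraction. Whether the numbers pair the samples was thus not settled, and the main test left the pairs out. A fit of the 2 groups alone does not apply to the interaction. The causes of these changes were not tested. Shores of few reads limit the precision of single values.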
